A study of Mus musculus with 6 samples.

Results

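The insulin-like growth factor (IGF) system was followed through 10 genes: the ligands Igf1 and Igf2, the receptors Igf1r and Igf2r, and the binding protein genes Igfbp2, Igfbp3, Igfbp4, Igfbp5, Igfbp6 and Igfbp7. The members were taken as a named gene family, with earlier results of these data known, and all 10 were present among the 31063 genes of the dendritic cell tables and the 31065 genes of the wound tables. IGF-I and IGF-II are small secreted proteins that resemble proinsulin. They signal through the IGF-I receptor, a tyrosine kinase that drives growth and survival through the PI3K and AKT pathway, whereas the IGF-II receptor carries lysosomal enzymes and removes IGF-II. In blood and tissue most IGF is held by binding proteins, which extend its life, keep it from the receptor, or release it when proteases such as PAPP-A cut them. In skin, fibroblasts and macrophages are known sources of IGF-I, and keratinocytes and fibroblasts respond to it.

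The study grew dendritic cells (DCs) from the bone marrow of wild-type C57BL/6J mice with GM-CSF and profiled single cells from 3 cultures by 10x 3′ sequencing. One culture was untreated. Another was VD3 stimulated, that is, given the active form of vitamin D3 at 1e-06 M for 24 hours from day 7. The third was Ndrg2-KO, made from wild-type cells by nucleofection of Cas9 with 3 guide RNAs against Ndrg2, a gene of the N-myc downstream regulated family. The remaining 3 libraries came from splinted full-thickness wounds on the backs of 6-week-old wild-type mice, explanted on day 10, which had received hydrogels with control DCs, hydrogels with Ndrg2-KO DCs, or blank hydrogels. Each wound group had 5 mice per the paper, and whether 1 or several animals went into a library is not given in the sources used here. The labels describe the control DCs put on wounds as untreated, whereas the methods describe nucleofection with non-targeting guides. The untreated DC culture was not described as nucleofected, so loss of Ndrg2 and nucleofection cannot be told apart in the comparison of cultures.

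Every condition was 1 library, so no difference between conditions had a replicate check and no test between conditions was made. Levels are counts of unique molecular identifiers (UMIs, each standing for 1 captured RNA molecule) per 1000000 UMIs of the library or cell type (CPM), and each bracketed range is an exact 95% interval that covers counting error only. Barcodes under 300 genes, at or over 100000 UMIs, or at or over 10% mitochondrial UMIs were removed. The DC libraries then held 7257 to 8825 cells with 116461484 to 143627482 UMIs, and the wound libraries 1948 to 5681 cells with 29675507 to 49240341 UMIs. Any 2 libraries shared 1 to 19 cell barcodes, at most 0.264% of the smaller library. At the level of whole libraries, Itgax and fibroblast markers set cultures and wounds apart, whereas H2-Ab1 did not. The DC marker Itgax stood at 77.8 to 263 CPM in the cultures and 16.6 to 30.3 in the wounds. H2-Ab1 was at 487 to 908 in the cultures and 577 to 750.2 in the wounds. The summed level of 8 fibroblast markers was at most 5.37 in the cultures against 22620 to 50197 in the wounds. Lum and Dpt, which define fibroblasts, were at 0 in all 3 cultures. The cultures were mixed. Neutrophil markers together reached 5135 CPM in the untreated and 5994 in the VD3 stimulated culture but 395 in the Ndrg2-KO culture, and markers of premature DCs were 9976, 4195 and 28330. In the same order DC markers were 2784, 2253 and 1197, and mature DC markers 6301, 6200 and 5525. Macrophage markers were 1303, 1302 and 2584, and monocyte markers 1910, 1008 and 3518. The Ndrg2-KO culture was thus lowest in DC and mature DC markers and highest in macrophage and monocyte markers. The part of these differences in the results below was not tested, except where values within a cell class are given.

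The targeted gene itself had 613 UMIs in untreated, 165 in VD3 stimulated and 127 in Ndrg2-KO DCs, or 4.62, 1.42 and 0.884 CPM, and 6.1, 3.33 and 3.29 CPM in wounds with control DCs, with Ndrg2-KO DCs and with blank hydrogels. It was lowest in the library labelled Ndrg2-KO. Small deletions at a guide site need not remove the 3′ end of the transcript that this assay counts, so these counts do not measure the edit.

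In the DC cultures 1 ligand, both receptors and 1 binding protein gene carried nearly all of the signal. Igf1 had 2724 UMIs in untreated, 279 in VD3 stimulated and 29834 in Ndrg2-KO DCs, or 20.5 (19.8 to 21.3), 2.4 (2.12 to 2.69) and 208 (205 to 210.1) CPM. The Ndrg2-KO culture was thus 10.1-fold above the untreated one (log2 ratio 3.34, 3.28 to 3.39) and the VD3 stimulated culture 8.58-fold below it (log2 ratio -3.10, -3.28 to -2.92). The 3 intervals did not overlap. With a limit of 5% mitochondrial UMIs in place of 10%, the log2 ratio for Ndrg2-KO was 4.68 and that for VD3 -2.52. Igf1 lies on the plus strand of chromosome 10 from 87858265 to 87937042 (GENCODE M21, GRCm38). Igf2 had 0 UMIs in all 3 cultures, where the floor of 3 UMIs is worth 0.0209 to 0.0258 CPM.

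Of the receptors, Igf2r followed the order of Igf1 across the cultures and Igf1r did not. Igf2r stood at 16.9 (16.2 to 17.6) CPM in untreated, 8.45 (7.93 to 8.99) in VD3 stimulated and 46.1 (45.0 to 47.2) in Ndrg2-KO DCs. Ndrg2-KO lay 2.73-fold above untreated (1.45 on the log2 scale, 1.38 to 1.52). With VD3 the level was 0.501 of the untreated one (interval of the log2 ratio -1.11 to -0.89), on the edge of 2-fold and not counted as past it. Igf1r stood at 16.0 (15.3 to 16.7), 21.6 (20.8 to 22.4) and 15.7 (15.1 to 16.4), log2 ratios of 0.44 for VD3 and -0.02 (-0.11 to 0.06) for Ndrg2-KO. Airn, a noncoding RNA, lies on the strand opposite to Igf2r, Igf1os opposite to Igf1, and Polr2b opposite to Igfbp7. The 3′ chemistry named in the paper's methods keeps the strand of each RNA.

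Igf2r is printed here because it was, with Igf1, one of the 2 genes with at least 50 UMIs that were at least 2-fold higher in the Ndrg2-KO culture, and its promoter window holds no exon. It is a gene of mouse chromosome 17 on the minus strand, from 12682406 to 12769664 in GENCODE M21 on GRCm38. The line below gives the 250 bases before its RefSeq start (GRCm38.p6, chr17:12769707-12769956, minus strand, 5′ to 3′), of which 69.2% are G or C. Capitals mark CACGTG, the E-box, searched on both strands, which reads the same on either. It occurs 2 times, starting 48 and 7 bases before the start, and 6.02% of the 32851 promoter windows of the same length hold it at least once. The letters TATAAA, searched likewise, were absent here and present on either strand in 12.4% of windows. A match describes the letters and does not show that a factor binds.
Igf2r: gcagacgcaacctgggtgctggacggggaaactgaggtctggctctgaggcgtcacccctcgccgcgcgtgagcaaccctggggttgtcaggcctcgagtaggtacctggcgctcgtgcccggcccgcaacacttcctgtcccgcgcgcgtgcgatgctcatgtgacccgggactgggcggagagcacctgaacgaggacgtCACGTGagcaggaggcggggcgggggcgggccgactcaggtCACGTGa

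Igfbp4, whose product is the substrate of the protease PAPP-A, was the one binding protein gene with a clear level in cultured DCs. It was at 51.6 (50.4 to 52.9) CPM in untreated, 43.7 (42.5 to 44.9) in VD3 stimulated and 60.9 (59.7 to 62.2) in Ndrg2-KO DCs, all within 2-fold. The log2 ratio for Ndrg2-KO was 0.24, but -0.07 under 5% mitochondrial UMIs and 0.89 as a mean over cells. Igfbp6 and Igfbp7 stayed below 1 CPM in every culture. Igfbp6 had 48, 46 and 25 UMIs in that order, a log2 ratio of -1.06 (-1.82 to -0.33) for Ndrg2-KO against untreated, and Igfbp7 had 97, 97 and 93. A single cell held 41 of the 97 Igfbp7 UMIs of the untreated culture. The log2 ratio of Igfbp7 was -0.18 for Ndrg2-KO and 0.19 for VD3, but -1.81 and -0.83 under 5% mitochondrial UMIs and 0.57 and 0.99 without the cells of highest doublet score, so no direction was resolved. Igfbp5 had 0, 0 and 41 UMIs, at least 12.6-fold higher in Ndrg2-KO than in untreated DCs when the 0 is replaced by 3 UMIs, and 1 cell held 14 of the 41. Igfbp2 and Igfbp3 had 0 UMIs in each culture.

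**Figure D1:**
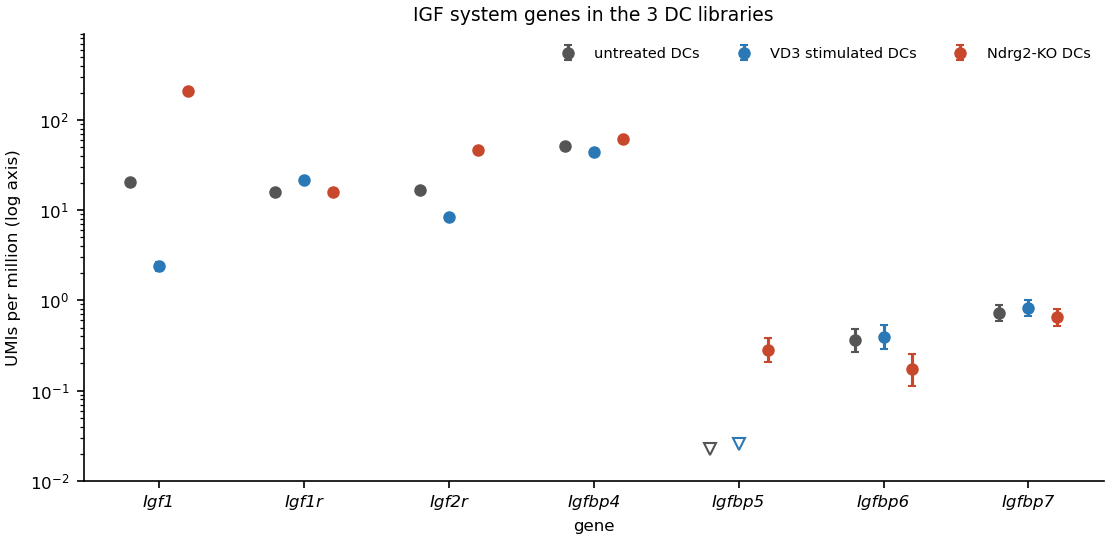
CPM (log axis) of 7 IGF system genes in the untreated, VD3 stimulated and Ndrg2-KO DC libraries. Points are 1 library each with exact 95% Poisson intervals, and open triangles mark libraries with 0 UMIs at the level 3 UMIs would give. Igf1 runs from 2.4 in VD3 stimulated to 208 in Ndrg2-KO DCs, whereas Igf1r and Igfbp4 lie within 2-fold across the libraries.

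Counted over the family, 6 of the 10 genes had at least 50 UMIs in the 2 libraries of a comparison together and could be called. For Ndrg2-KO against untreated, 2 of 6 were at least 2-fold higher (Igf1 and Igf2r), 1 was at least 2-fold lower (Igfbp6) and 3 were within 2-fold. The log2 ratio of Igfbp6 was -0.83 without the cells of highest doublet score, which ends its call, and -2.76 as a mean over cells. The 4 others were Igf2, Igfbp2, Igfbp3 and Igfbp5. Over all 13329 genes with 50 UMIs, 10.2% were at least 2-fold higher and 9.28% at least 2-fold lower. The median log2 ratio was 0.11 for the 6 and -0.059 for all genes. For VD3 stimulated against untreated, 0 of 6 were higher and 1 was lower (Igf1), where 4.18% of 13113 genes were higher and 7.44% lower. The median log2 ratios were -0.06 and -0.076. Both comparisons share the untreated library.

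The Igf1 signal was then followed by kind of cell. Cells were placed in classes by marker genes alone, with at least 3 markers of a list and more than of any other list. In premature DC-like cells, which keep monocyte genes such as Csf1r and Lyz2, Igf1 was at 46.1 (44.0 to 48.3) CPM in untreated, 6.61 (5.07 to 8.48) in VD3 stimulated and 266 (262 to 269.7) in Ndrg2-KO DCs. The order of the 3 cultures was therefore the same within that class, with a log2 ratio of 2.53 (2.46 to 2.60) for Ndrg2-KO and -2.80 (-3.19 to -2.44) for VD3 against untreated. In mature DC-like cells, which carry Ccr7 and Fscn1 for migration to lymph nodes, the levels were lower in every culture: 6.26, 1.75 and 59.7, log2 ratios of 3.25 (3.09 to 3.41) and -1.84 (-2.14 to -1.54). In proliferating-like cells they were 5.59, 2.7 and 282. Neutrophil-like cells of the same cultures held 1, 0 and 1 Igf1 UMIs, or 0.696 (0.0176 to 3.88), 0 (up to 1.25) and 7.01 (0.177 to 39.0) CPM.

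The share of cells with an Igf1 UMI told the same order when each cell was reduced to 2000 randomly drawn UMIs. Of premature DC-like cells, 7.8% (6.58 to 9.16) held one in untreated, 1.23% (0.534 to 2.41) in VD3 stimulated and 30.7% (29.2 to 32.1) in Ndrg2-KO DCs, with median depths of 19112, 13312 and 17650 UMIs before drawing. Without drawing, the shares were 26.1%, 6.49% and 66.6%. In neutrophil-like cells, which served as the background, the drawn shares were 0 of 223 cells, 0 of 492 cells and 1 of 32 cells, that is 0% (up to 1.64), 0% (up to 0.747) and 3.12% (0.0791 to 16.2). Median depths there were 2398, 2937 and 3886 UMIs.

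Clusters built without the 10 genes located Igf1 more finely. Most clusters, including most mature DC-like and proliferating-like ones, drew at least 90.7% of their cells from 1 library. The exceptions were clusters 3, 4, 13, 15 and 16, with at most 68.4%. Cluster 0, a premature DC-like group led by Arg1, Mmp13 and Fabp4 with 3625 of its 3631 cells from the Ndrg2-KO culture, held 69.9% of that culture's Igf1 UMIs at 282 CPM (279 to 286). Cluster 10, a proliferating-like group with 1063 of 1065 cells from that culture, held 24.4% at 260.0 (254 to 266). By contrast, the Ndrg2-KO cells of cluster 5, which was mature DC-like, were at 6.18 (5.22 to 7.26). The marker-gated mature class of the same culture, at 59.7, was therefore wider than cluster 5 and took in cells of other clusters. Neutrophil-like cells of that culture held 1 Igf1 UMI (0.177 to 39.0 CPM), too few to give a background for cluster 5. In untreated and VD3 stimulated DCs, neutrophil-like cells were at 0.696 (up to 3.88) and 0 (up to 1.25). In the untreated culture 60.1% of Igf1 UMIs lay in cluster 9, an unnamed group led by Plet1, Cxcl3 and Mgl2, at 64.4 (61.4 to 67.6), and the untreated cells of mature cluster 2 were at 0.424.

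Igf2r and Igfbp4 divided over the same classes differently. In premature DC-like cells Igf2r was at 29.9 CPM in untreated, 9.28 in VD3 stimulated and 53.7 in Ndrg2-KO DCs. Against untreated, the Ndrg2-KO culture had a log2 ratio of 0.85 (0.75 to 0.94) and the VD3 stimulated culture one of -1.69 (-2.02 to -1.37). In mature DC-like cells Igf2r was at 10.6, 9.22 and 26.1 (log2 ratio for Ndrg2-KO 1.30, 1.15 to 1.45). In proliferating-like cells it was at 5.14, 3.57 and 50.4 (3.30, 2.89 to 3.72). Cells left unnamed had a ratio of 1.63 (1.46 to 1.80) for Ndrg2-KO. Igfbp4 was higher in mature than in premature DC-like cells of all 3 cultures: 63.6 against 27.6 in untreated, 49.7 against 29.9 in VD3 stimulated and 146 against 31.5 in Ndrg2-KO DCs. Within mature DC-like cells the Ndrg2-KO culture was 2.3-fold above the untreated one (log2 ratio 1.20, 1.14 to 1.26), whereas premature DC-like cells differed by 0.19 (0.08 to 0.29). The ratio went the other way in proliferating-like cells (-1.60, -1.81 to -1.39) and in cells that the markers left unnamed (-0.54, -0.69 to -0.40). The larger mature DC-like clusters were split by library, cluster 2 being 93.5% untreated, cluster 1 99.5% VD3 stimulated and cluster 5 98.6% Ndrg2-KO. The whole-library ratio of Igfbp4, within 2-fold, thus combined classes that differed in size and in level.

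**Figure D2:**
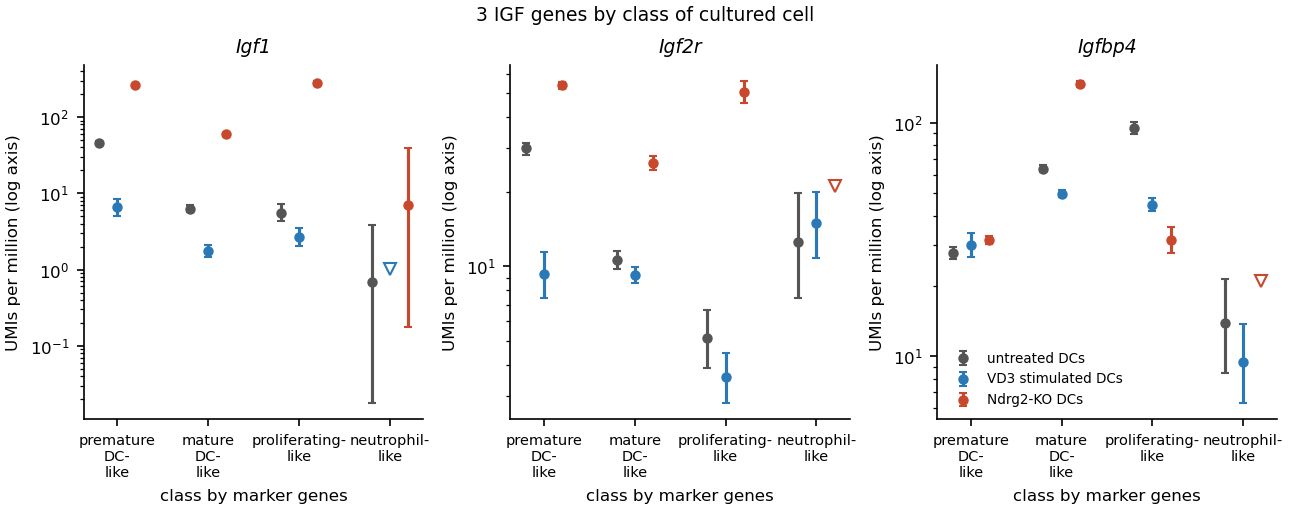
Igf1, Igf2r and Igfbp4 in CPM (log axis) by marker-gated class of cultured cell, with 1 point for each DC library, exact 95% Poisson intervals, and open triangles at 3 UMIs where none was counted. The axes differ between panels. Ndrg2-KO lies above untreated in Igf1 in each of the premature, mature and proliferating-like classes, and its Igfbp4 level of 146 in mature DC-like cells is the highest of the 3 cultures.

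The other cells of the cultures marked out Igf1r and Igfbp7. Over all cultures Igf1r was at 61.5 (48.9 to 76.3) CPM in basophil-like cluster 16, on 82 UMIs in 135 cells, and at 50.7 (46.2 to 55.5) in neutrophil-like cluster 4, and these intervals overlapped. Cluster 16 also had the B cell genes Igkc and Igha among its leaders. By the marker gate, basophil-like cells were at 51.8 and 33.1 in untreated and VD3 stimulated DCs and neutrophil-like cells at 52.9 and 43.3, so the order of these 2 types was not resolved. In the neutrophil-like cluster it was close to equal across libraries, at 50.8 (44.5 to 57.6) in untreated, 50.5 (44.0 to 57.7) in VD3 stimulated and 54.7 (7 UMIs) in Ndrg2-KO DCs. Igfbp7 reached 38.2 in the basophil-like cluster and at most 2.83 in any other. Over 31 cluster-by-library sums, the genes with profiles most like that of Igfbp7 were Mcpt8 (Pearson r = 0.92), Cpa3 (0.92) and Epx (0.91), markers of basophils, mast cells and eosinophils.

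Likeness was also measured for Igf1, Igf1r and Igfbp4, over the same 31 sums, which share libraries and differ in depth. For Igf1 the 3 most alike genes were Rnase2a (r = 0.95), Ksr2 (0.92) and Clec4b1 (0.91). For Igf1r they were Alg9 (0.90), Atxn1 (0.87) and Nmrk1 (0.87), and for Igfbp4 Snrpb2 (0.78), Mpi (0.74) and As3mt (0.73). These were the 3 highest of 12106 genes compared in each case, and they carry no test.

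In the wounds the family was expressed mainly outside the DC lineage. Cells were grouped into 14 clusters without using the 10 genes, and types were named from lists of marker genes. The wound fibroblast-like cells (470, 463 and 323 cells in wounds with control DCs, with Ndrg2-KO DCs and with blank hydrogels, the order kept below) held all 8 fibroblast markers. Levels below are the mean ± SD over the 3 wound libraries, which differ in treatment, so the SD holds treatment and animal together. With 3 libraries an exact paired test cannot go below p = 0.25, and none was made. Of the 10 genes, 5 had their highest mean in fibroblast-like cells among the 8 types with at least 20 cells in each library: Igf1, Igf2r, Igfbp4, Igfbp5 and Igfbp6. Of all 14036 genes with at least 50 UMIs over the wound libraries, 16.8% had theirs there, as had 5 of the 9 members with that many UMIs. The count among the 10 genes depended on the grouping. It was 8 in place of 5 with more principal components, and also with the marker gate in place of clusters. Under both settings endothelial-like cells fell under 20 cells in a library. No share of all genes was counted there, so the 16.8% holds for the main clusters only. The clusters were built from these same cells, so these counts are a description.

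Among ligands, Igf1 was at 241 ± 97.1 (SD, n = 3) CPM in fibroblast-like cells, at 340.3, 235 and 146 in the 3 libraries. Macrophage-like cells followed at 155 ± 37.5 (198, 127 and 140.4), and the ranges of these 2 types overlapped. The unnamed cluster 8, led by genes of endothelial, mast and mural cells, was at 77.2 ± 39.1, with 1 cell holding 65.6% and 66.7% of its UMIs in the first 2 libraries. Keratinocyte-like cells were at 28.6 ± 25.6, the unnamed cluster 5, which carried Ly6c2 and Ccr2 of monocytes together with DC genes such as H2-Ab1 and Cd209a, at 15.7 ± 2.89, and neutrophil-like, T cell-like and NK-like cells at 3.22 or below. Igf2 was nearly absent, with 6, 3 and 3 UMIs in the 3 whole libraries, 10 of these in fibroblast-like cells.

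Macrophage-like cells were not uniform for Igf1. Cluster 7, with Cd209 and Lyve1 genes of resident macrophages among its leaders, was at 252, 284 and 308 CPM, and cluster 4, rich in C1q genes, was at 241, 194 and 196. The mean of cluster 7, 281 ± 28.4, was above the 241 ± 97.1 of fibroblast-like cells, with overlapping ranges. Cluster 2, led by Mmp12 and Arg1, was at 102, 25.7 and 81.2. In cluster 2 alone the wounds with Ndrg2-KO DCs were 3.97-fold below those with control DCs (log2 ratio -1.99, -2.26 to -1.72), on 216 and 256 UMIs. At resolution 1.0 the leading genes of cluster 2 were divided over 2 clusters, one led by Mmp13 and Mmp12 with 72 cells from wounds with control DCs and 502 from wounds with Ndrg2-KO DCs, the other led by Atp6v0d2 and Gpnmb with 87 and 183. The makeup of cluster 2 thus differed between these libraries. Cells named DC-like in the wounds (58 cells in cluster 13) held 1 Igf1 UMI, or 1.21 CPM (0.0305 to 6.72), and the 87 cells gated by DC markers held 0. The labels carry no mark that tells DCs put on the wound from those of the host.

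The receptors went to different cells. Igf1r was at 419 ± 39.6 (SD, n = 3) CPM in neutrophil-like cells, at 448, 374 and 434 in the 3 libraries, and no other type reached the lowest of these. Cluster 8 came next at 91.4 ± 20.1, then keratinocyte-like cells at 69.7 ± 4.94, fibroblast-like cells at 69.1 ± 14.9 and macrophage-like cells at 57.8 ± 6.63, the ranges of each neighbouring pair overlapping. Neutrophil-like cells are shallow, with median depths of 3279, 2927 and 3359 UMIs against 30018, 26709 and 28010 in fibroblast-like cells. After each cell was reduced to 1000 drawn UMIs, 30.7% (26.5 to 35.2), 24% (22.5 to 25.6) and 28.8% (26.5 to 31.1) of neutrophil-like cells still held an Igf1r UMI, compared with 9.79%, 4.97% and 6.5% of fibroblast-like cells. Without drawing the order was turned, at 57.1%, 48.3% and 56.6% against 81.3%, 66.3% and 80.2%. Igf2r was spread more evenly, at 128 ± 33.1 in fibroblast-like, 105 ± 19.1 in neutrophil-like, 87.4 ± 18.0 in cluster 8 and 70.5 ± 25.4 in macrophage-like cells, with overlapping ranges between neighbours.

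Among binding protein genes, Igfbp4, Igfbp5 and Igfbp6 had their highest means in fibroblast-like cells. Igfbp3 and Igfbp7 had theirs in cluster 8, and Igfbp2 in keratinocyte-like cells. In fibroblast-like cells Igfbp4 was the most even of the family, at 549.7, 553 and 556 CPM (553 ± 3.39, SD, n = 3), above every value of any other type. Igfbp6, whose product prefers IGF-II, was at 802, 993 and 752 (849 ± 127), and Igfbp5, the matrix-binding member, at 525, 319 and 509.6 (451 ± 115). Igfbp3, the main carrier in blood, was at 222, 154 and 146 (174 ± 42.1). Igfbp7, a secreted relative that binds IGF weakly, was at 651, 737 and 506 (632 ± 117) in fibroblast-like cells but at 3574, 3187 and 3182 (3315 ± 225) in cluster 8. Igfbp2 was rare, with 40, 10 and 15 UMIs per library, and 1 cell held 30 of the 40.

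Endothelial and mural cells were also taken from all wound cells by the marker gate. The 23, 16 and 8 gated endothelial-like cells had Igfbp7 at 5211, 5460 and 4356 CPM, and the 11 gated pericyte-like cells at 2409, 3360 and 2129. Igfbp3 in endothelial-like cells was at 105, 161 and 2356, and 1 cell held 94.9% of the 544 UMIs behind the last value. Igfbp5 was at 1089 in the 6 pericyte-like cells of wounds with control DCs, 50.3% of it in 1 cell, and at 13.5 or below in endothelial-like cells of each library. The high mean of Igfbp3 in cluster 8, 408 ± 376, thus rested on few cells, and the order of cluster 8 and fibroblast-like cells for this gene was not resolved by their ranges.

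**Figure D3:**
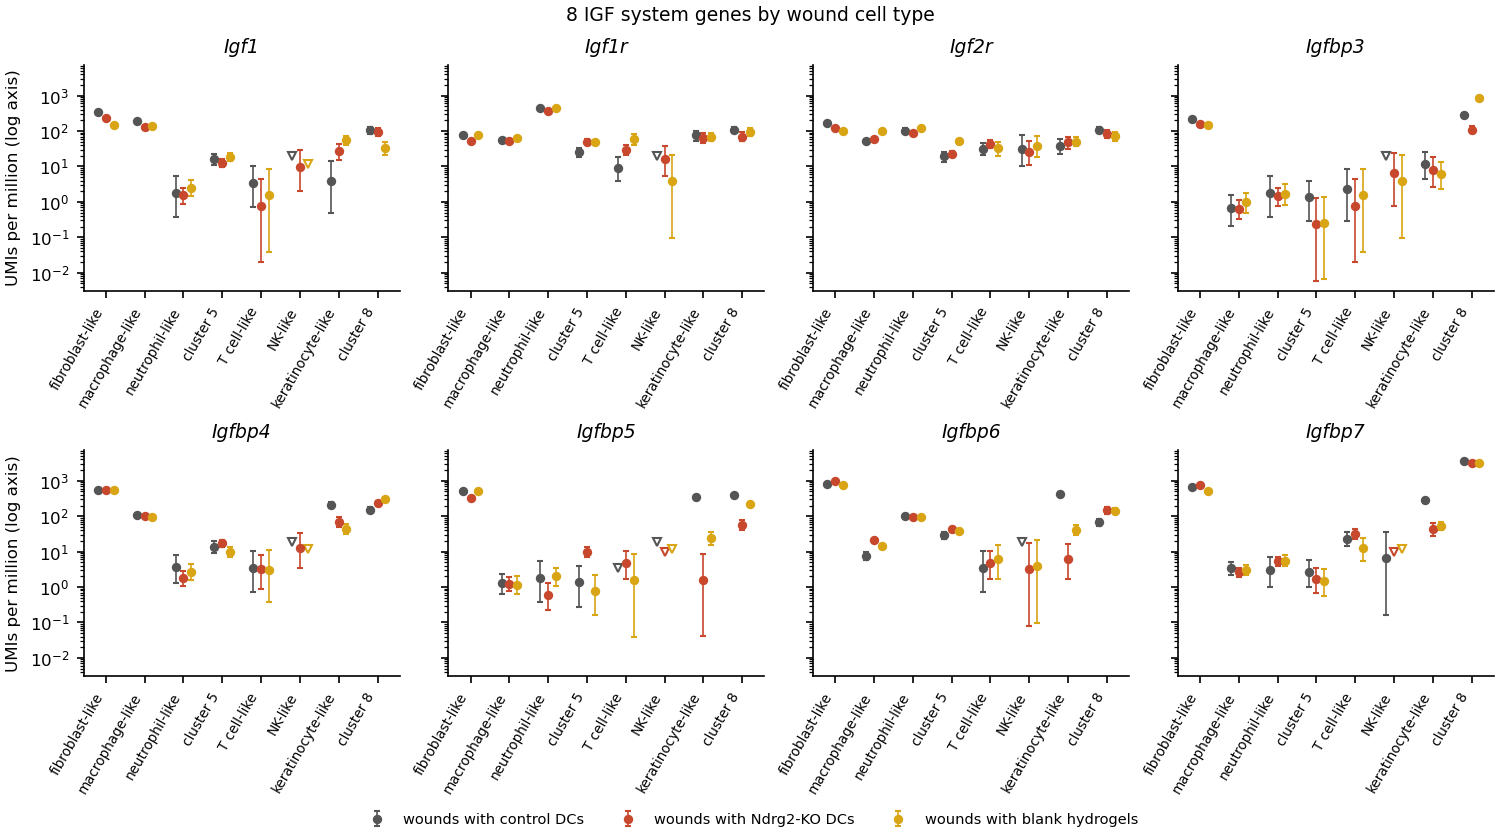
CPM (log axis, shared) of 8 IGF system genes in 8 wound cell types, with 1 point for each wound library, exact 95% Poisson intervals, and open triangles at 3 UMIs where none was counted. Igf1 is high in fibroblast-like and macrophage-like cells, Igf1r in neutrophil-like cells at 374 to 448, and Igfbp7 in cluster 8 at 3182 to 3574.

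Among the binding protein genes, Igfbp4 was the highest in macrophage-like cells and Igfbp6 in neutrophil-like cells. Igfbp4 was at 102 ± 8.13 CPM in macrophage-like cells, with cluster 4 at 176, 187 and 186, cluster 7 at 109, 183 and 163, and cluster 2 at 11.6, 19.8 and 24, while Igfbp6 was at 14.4 ± 6.94 and Igfbp3, Igfbp5 and Igfbp7 had means of 3.03 or below in the class. Cluster 5 had Igfbp6 at 36.0 ± 6.99 and Igfbp4 at 13.5 ± 3.79. Igfbp6 was at 97.9 ± 3.88 in neutrophil-like cells, mostly in cluster 0 at 120.1, 126 and 109, while Igfbp4 in those cells was at 2.73 ± 0.909. In fibroblast-like cells there were 1.46, 1.79 and 1.35 Igfbp6 UMIs for each Igfbp4 UMI, in neutrophil-like cells 28.0, 52.2 and 35.2, and in macrophage-like cells 0.0706, 0.207 and 0.151. On drawing to 1000 UMIs, 9.87%, 8.66% and 8.61% of neutrophil-like cells held an Igfbp6 UMI, against 0.364%, 2.16% and 1.22% of macrophage-like cells. For Igf1, Igfbp4, Igfbp5 and Igfbp7 the neutrophil-like share was at most 0.783% in any library, whereas the fibroblast-like share was at least 13.6%.

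Over 36 cluster-by-library sums the members differed in the genes most like them in the wounds. The most alike genes, among 11620, were Psd3 (r = 0.94), Pmp22 (0.93) and Snx24 (0.93) for Igf1, and Nfix (0.95), Nfic (0.94) and Fosb (0.94) for Igfbp4. Igf1 and Igfbp4 were at r = 0.87 with each other. For the receptors they were Dusp16 (0.89), Irak3 (0.88) and Ccdc126 (0.87) beside Igf1r, and Sntb2 (0.78), Ndst1 (0.78) and Pdlim7 (0.77) beside Igf2r. Igf1 and Igf1r were at r = 0.01, and Igf1r and Igfbp6 at 0.52. Igfbp4 was at 0.61 with Igfbp3, 0.67 with Igfbp5 and 0.58 with Igfbp7. Igfbp3, Igfbp5 and Igfbp7 were at 0.88 to 0.90 with each other. Of the other binding protein genes, Igfbp3 was most like Lamb2 (0.96), Cacna2d1 (0.96) and Gjc1 (0.95), and Igfbp7 like Gjc1 (0.96), Akap12 (0.96) and Ptprg (0.95). The genes nearest to Igfbp5 were Sorcs2, Osbpl6 and Sema5a (0.96 each), and those nearest to Igfbp6 were Fam114a1 (0.91), Ccdc80 (0.88) and Ptx3 (0.85).

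The comparison of wounds asked whether the IGF genes of the wound differed with the cells delivered. In whole libraries Igf1 was at 229 (224 to 234) CPM in wounds with control DCs, 111 (108 to 114) with Ndrg2-KO DCs and 91.9 (88.8 to 95.2) with blank hydrogels. Igfbp3 was at 122, 46.4 and 60.6, Igfbp5 at 284, 89.5 and 149.6, and Igfbp7 at 461, 259.8 and 226. All were highest in wounds with control DCs. The receptor Igf1r ran the other way, at 86.7 (83.4 to 90.2), 116 (113 to 119) and 128 (125 to 132).

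Cell makeup moved with these values. Fibroblast-like cells gave 50.2%, 26.0% and 27.8% of UMIs in the 3 libraries and neutrophil-like cells 5.53%, 19.9% and 16.9%. Fibroblast-like cells held 74.5%, 55.2% and 44.2% of Igf1 UMIs and at least 92.7% of Igfbp5 UMIs in each library, and neutrophil-like cells held 28.6%, 64.1% and 57.2% of Igf1r UMIs. In whole libraries fewer cells of a type and less RNA per cell cannot be told apart. For Ndrg2-KO DCs against control DCs, 0 of 9 genes with 50 UMIs were at least 2-fold higher and 4 were at least 2-fold lower (Igf1, Igfbp2, Igfbp3 and Igfbp5), where 4.39% of 13358 genes were higher and 6.22% lower. Igf1 lay near the edge (log2 ratio -1.05) and was at -0.90 with median-ratio scaling, which ends its call, while as means over cells Igfbp4 and Igfbp7 also passed (-1.31 each). By that measure Igfbp3 was at -2.40 in place of -1.40, Igfbp5 at -2.28 in place of -1.67 and Igfbp2 at -1.15 in place of -2.73. For blank hydrogels against control DCs the counts were 0 and 4 (Igf1, Igfbp2, Igfbp3 and Igfbp7), with 3.71% of 13137 genes higher and 3.89% lower. Of these 4, Igfbp3 (log2 ratio -1.01) and Igfbp7 (-1.03) lay on the edge of 2-fold. As means over cells they were -1.93 and -1.58, and Igfbp4 (-1.05) and Igfbp5 (-1.20) also passed. Igfbp3 was at -0.74 with all barcodes and Igfbp7 at -0.78 without the cells of highest doublet score, which ends each call. Both Igfbp2 calls rest on the single cell with 30 of the 40 UMIs in wounds with control DCs, beside 10 and 15 UMIs in the other libraries. The median log2 ratios of the 9 genes were -0.83 and -0.93, against -0.147 and -0.037 over all genes. All wound comparisons share the library with control DCs.

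**Figure D4:**
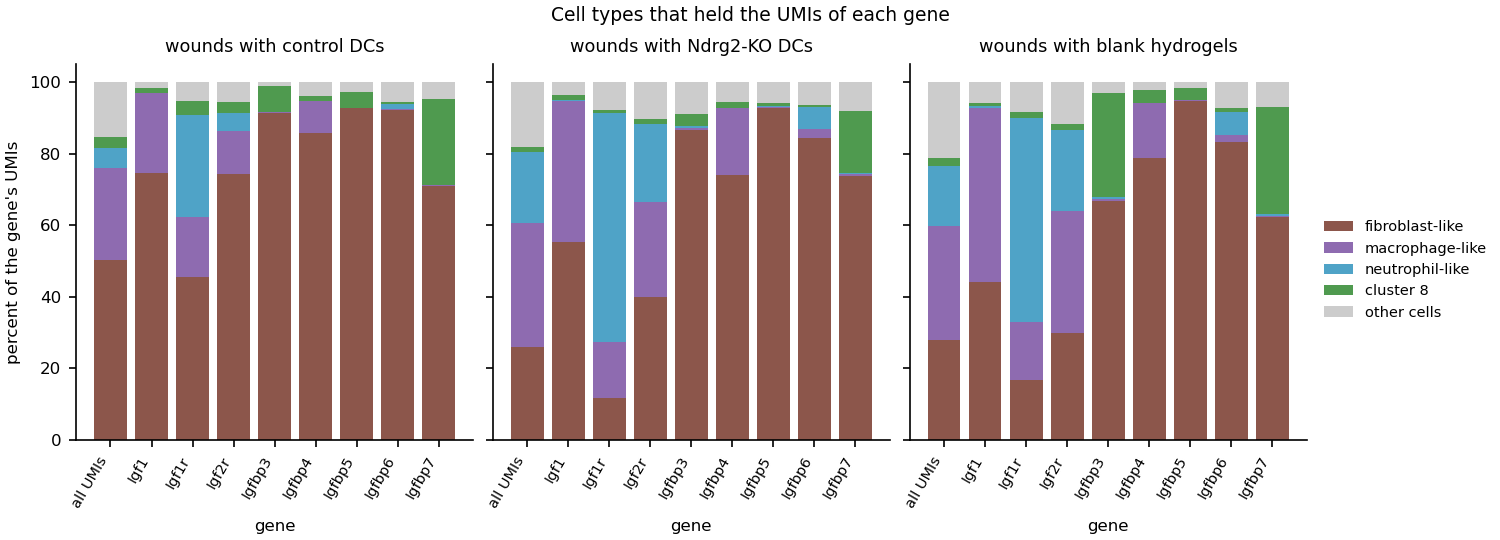
Percent of all UMIs, and of the UMIs of each of 8 IGF system genes, that lay in fibroblast-like, macrophage-like and neutrophil-like cells, cluster 8 and other cells of each wound library. Fibroblast-like cells hold 50.2% of all UMIs with control DCs and 26.0% and 27.8% in the other libraries, and neutrophil-like cells hold most Igf1r UMIs outside the wounds with control DCs.

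Within fibroblast-like cells the ratios of Igf1, Igfbp3 and Igfbp5 lay nearer to 0 than over all cells. For Ndrg2-KO DCs Igf1r turned from a log2 ratio of 0.42 over all cells to -0.60, and for blank hydrogels Igf2r went from -0.26 to -0.73. For Ndrg2-KO DCs against control DCs, 0 of 8 genes were past 2-fold in either direction, where 4.1% of 11007 genes were higher and 1.27% lower. Igfbp5 had the lowest ratio (log2 -0.72, -0.78 to -0.67), followed by Igf1r (-0.60), Igf1 (-0.53, -0.60 to -0.47) and Igfbp3 (-0.53). Igfbp4 was level (0.01, -0.04 to 0.06) and Igfbp6 was the highest (0.31, 0.27 to 0.34). For blank hydrogels against control DCs, 0 genes were higher and 1 of 8 was lower, where 2.43% of 10723 genes were higher and 0.905% lower. That gene was Igf1, at 146 against 340.3 CPM, a log2 ratio of -1.22 (-1.30 to -1.13). On drawing to 1000 UMIs, 25.5% (21.6 to 29.7), 21.6% (17.9 to 25.6) and 13.6% (10.1 to 17.9) of fibroblast-like cells held an Igf1 UMI. The intervals of the libraries with control and Ndrg2-KO DCs overlapped, and that of blank hydrogels lay below the one with control DCs.

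In fibroblast-like cells Igf2r kept the order of Igf1 across the libraries, at 164, 121 and 99.0 CPM, and Igfbp5 did not. Igfbp5 was low only in wounds with Ndrg2-KO DCs, with drawn shares of 25.1% (21.2 to 29.3), 17.3% (13.9 to 21.0) and 29.7% (24.8 to 35.0), and blank hydrogels differed from control DCs by a log2 ratio of -0.04 (-0.09 to 0.01). The medians over the 8 genes were -0.48 and -0.23, against 0.084 and 0.080 over all genes.

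In macrophage-like cells 1 gene passed 2-fold. For Ndrg2-KO DCs against control DCs, Igfbp6 was at 21.6 against 7.69 CPM (log2 ratio 1.49, 1.09 to 1.91), 1 of 6 genes higher and 0 lower, where 3.66% of 10037 genes were higher and 1.36% lower. Neutrophil-like cells, which express Igfbp6, made up 51.1% of cells in that library and 23.7% with control DCs, and their part in this value was not tested. When macrophage-like cells were taken by the marker gate in place of clusters, the log2 ratio of Igfbp6 was 0.04, which ends this call. For blank hydrogels, 0 of 6 were past 2-fold, where 1.79% of 9590 genes were higher and 1.29% lower. Igf2r came nearest, at 99.2 against 51.1 (0.96, 0.79 to 1.13). Igf1 was below wounds with control DCs in both (-0.64, -0.73 to -0.54, and -0.49, -0.60 to -0.39). The class was made up differently, since cluster 2, the lowest in Igf1, held 168 of 562, 711 of 1372 and 415 of 837 macrophage-like cells. Within cluster 2 the ratios were -1.99 and -0.33, within cluster 4 -0.31 and -0.29, and within cluster 7 0.17 and 0.29. For Ndrg2-KO DCs the ratio of the class was -0.17 with clusters at resolution 1.0, where the class was another set of cells, since the cluster led by Mmp13 and Mmp12 was unnamed there. The medians of the 6 genes were -0.08 and 0.04, beside -0.041 and 0.039 for all genes.

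**Figure D5:**
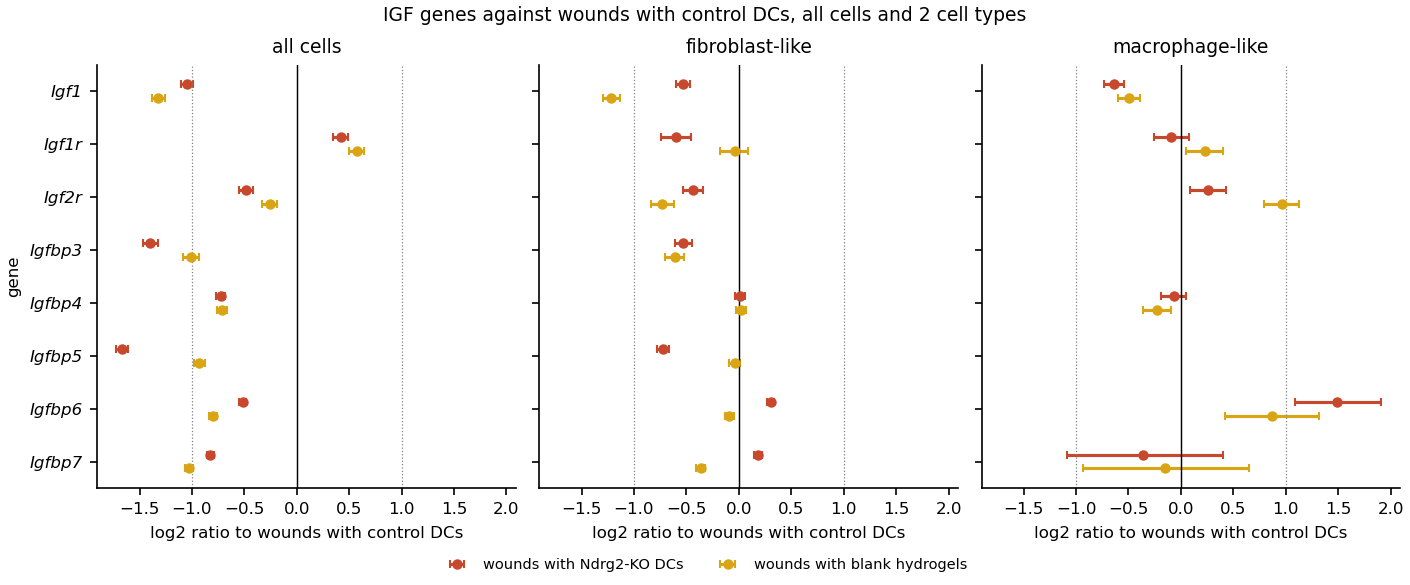
Log2 ratio of CPM to wounds with control DCs for 8 IGF system genes, in all cells, fibroblast-like cells and macrophage-like cells, with exact 95% intervals for counting error. Dotted lines mark 2-fold, and genes under 50 UMIs are not drawn. For wounds with Ndrg2-KO DCs, Igf1, Igfbp3 and Igfbp5 lie between -1.67 and -1.05 over all cells and between -0.72 and -0.53 in fibroblast-like cells.

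A list of 28 further genes of the pathway was counted in the same way. In the cultures, Ndrg2-KO against untreated had 3 of 19 genes at least 2-fold higher and 2 lower, beside 10.2% and 9.28% of all genes. The higher genes were Htra1, a protease that can cut binding proteins (0.86 to 16.5 CPM, log2 ratio 4.26, 3.99 to 4.54), and the mRNA-binding Igf2bp1 (2.01 to 4.99) and Igf2bp2 (1.65 to 10.7). The lower ones were Stc2, an inhibitor of PAPP-A (0.483 to 0.104), and Pik3r1, the regulatory subunit of PI3K (129 to 63.6). VD3 stimulated against untreated had 1 of 18 higher (Htra1, 2.33 against 0.86) and 2 lower (Igf2bp1, 0.318 against 2.01, and Igf2bp2, 0.764 against 1.65), beside 4.18% and 7.44%. Igf2bp1 and Igf2bp2 were thus below the shared untreated library with VD3 and above it with Ndrg2-KO.

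In whole wound libraries, Ndrg2-KO DCs against control DCs had 0 of 24 list genes higher and 3 lower, beside 4.39% and 6.22% of all genes. These were Grb10, an adaptor that restrains the receptors (60.9 against 127 CPM), Stc1 (2.68 against 7.51) and the imprinted noncoding RNA H19 (119 against 437). Blank hydrogels had 0 higher and 5 lower, beside 3.71% and 3.89%. The 5 were H19 (116), Ghr, the growth hormone receptor (18.6 against 39.0), Irs1 (3.35 against 8.46), Pappa2 (0.888 against 2.97) and Stc1 (2.46). In fibroblast-like cells, wounds with Ndrg2-KO DCs had 3 of 24 higher and 1 lower, beside 4.1% and 1.27%. Socs2, which restrains growth hormone signalling, was at 20.8 against 8.53, Pappa at 4.84 against 1.61, Stc1 at 5.38 against 2.22, and H19 at 400.1 against 822. Blank hydrogels had 1 higher (Pappa, 4.23) and 1 lower (H19, 373), beside 2.43% and 0.905%. In macrophage-like cells 0 of 15 were higher in either comparison, beside 3.66% for Ndrg2-KO DCs and 1.79% for blank hydrogels. Htra1 (2.29 against 8.08) and H19 (6.75 against 25.3) were lower with Ndrg2-KO DCs, and H19 (3.23) with blank hydrogels, where 1.36% and 1.29% of all genes were lower. H19 was the one list gene past 2-fold in all 6 wound comparisons, and it was highest in wounds with control DCs in each. These comparisons share that library, and those over all cells include the fibroblast-like and macrophage-like cells, so they are not separate results.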

How the data were processed

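The authors deposited, for each of 6 libraries, a 10x matrix of whole-number UMI counts per gene and cell barcode, 1 library per condition. Per the labels the reads were processed with Cell Ranger and Seurat 3.1.1 with build mm9, whereas the paper names mm10. The counts carried no normalization. Here the cell filter given above was applied (300 genes, 100000 UMIs, 10% mitochondrial), and counts were summed per library, cell type or class and divided by the total (CPM, per 1000000 UMIs). Ratios have exact conditional binomial 95% intervals, shares exact Clopper-Pearson intervals; both cover counting error only. Calls at 2-fold needed 50 UMIs over both sums, and a 0 was set to 3 UMIs. The ratio code was tested on simulated counts. Clusters used Seurat 5.3.0 (10000-UMI log-normalization, 2000 variable genes without the 10, 15 components, 15 neighbours, resolution 0.5), named from marker lists. Doublets were kept: Scrublet (scanpy 1.11.5) marked under 1% of any library, so the highest 6% of scores were left out as an alternative. Named genes were all 10, list genes past 2-fold, and the 3 most alike genes on log2(CPM + 1). Members and lists were chosen with earlier results of these data known. Coordinates come from GENCODE M21 and the promoter from RefSeq on GRCm38.p6. Alternatives changed the cell filter, scaling, UMI minimum, clustering, depth of drawing and the libraries included. The genes most like Igf2r in the cultures are not reported here.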

Additional observations from a re-analysis of the deposited data

Results flagged for a closer look

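6 results moved past 2-fold in opposite directions in 2 groups of cells under the same contrast. None of these differences was tested, since each condition was 1 library. Among all genes with 50 UMIs in at least 2 groups, 0.644% did so between classes for Ndrg2-KO and 0.21% for VD3 against untreated DCs, and 2.05% and 1.68% between wound clusters for Ndrg2-KO DCs and blank hydrogels. The members that did were 1 of 4, 1 of 5, 1 of 8 and 3 of 8 in that order. In the cultures, Igfbp4 was higher in Ndrg2-KO than in untreated DCs in the mature DC-like class (146 against 63.6 CPM, log2 ratio 1.20) and lower in the proliferating-like class (31.5 against 95.3, -1.60), a gap of 2.80 on the log2 scale. The gated proliferating-like class held 329 Ndrg2-KO and 658 untreated cells. Among proliferating-like clusters, Igfbp4 was at 34.5 in cluster 10, with 1063 of 1065 cells from the Ndrg2-KO culture. It was at 54.6 in cluster 6, which was 92.0% untreated, a difference within 2-fold. Igfbp7 was higher in VD3 stimulated than in untreated DCs in the proliferating-like class (2.61 against 0.992, 1.39) and lower in the mature class (0.195 against 0.802, -2.04), a gap of 3.43. The second direction rests on 1 cell, which held 87.2% of the 47 Igfbp7 UMIs of the untreated mature class.

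The other 4 were between wound clusters and involved the keratinocyte-like cluster 9, where single cells also decided values. Igfbp6 with Ndrg2-KO DCs against control DCs had a log2 ratio of 2.32 in macrophage-like cluster 2 and -6.08 in cluster 9, a gap of 8.40. For blank hydrogels against control DCs the ratio was 1.51 in neutrophil-like cluster 1 and -3.41 in cluster 9, a gap of 4.92. The higher sides rested on 8 Igfbp6 UMIs in cluster 2 and 5 in cluster 1 of wounds with control DCs. Their log2 intervals were 1.30 to 3.56 and 0.21 to 3.18. In wounds with control DCs 1 of the 23 cells of cluster 9 held 99.1% of its 218 Igfbp6 UMIs and 98.1% of its 108 Igfbp4 UMIs. Igfbp4 with blank hydrogels against control DCs differed by 3.35 between cluster 8 (1.06) and cluster 9 (-2.29). Igf1 in the same contrast differed by 5.48 between cluster 9 (3.80) and cluster 8 (-1.68), on 2 UMIs in cluster 9 with control DCs and 53 with blank hydrogels, 43.4% of the latter in 1 cell. The direction in cluster 8 also rests on 1 cell, which held 65.6% of its 96 Igf1 UMIs in wounds with control DCs. The 29 cells gated by keratinocyte markers held 0 Igf1 UMIs.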

How the results depend on the processing

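No paired analysis was possible because each group has 1 library. Under the alternatives, 419 of 539 ratios of single genes stayed inside the counting interval and 120 moved beyond it. Ratios past 2-fold kept their sign, but several within 2-fold turned, among them Igfbp4 for Ndrg2-KO against untreated DCs from 0.24 to -0.07 under 5% mitochondrial UMIs (0.89 as a mean over cells), Igfbp7 from -0.18 to 0.57 without doublets there and from 0.19 to -0.83 under 5% mitochondrial UMIs with VD3, Igf2r over all wound cells with blank hydrogels from -0.26 to 0.23 as a mean over cells, and Igfbp6 in macrophage-like cells with blank hydrogels from 0.87 to -0.43 with the marker gate. For blank hydrogels against control DCs over all cells, 2 in place of 4 genes passed 2-fold with a limit of 300 UMIs in place of 300 genes, with all barcodes and with median-ratio scaling, and 6 as means over cells. In fibroblast-like cells, Ndrg2-KO DCs against control DCs gave 1 gene in place of 0 with the mean over cells and with no minimum of UMIs, and blank hydrogels gave 2 in place of 1 with no minimum. In macrophage-like cells, Ndrg2-KO DCs gave 2 in place of 1 with no minimum, and blank hydrogels gave 1 in place of 0 under 5% mitochondrial UMIs, with the mean over cells and at resolution 1.0, and 2 with the marker gate. Genes highest in fibroblast-like cells were 8 in place of 5 with 30 components and with the gate, where endothelial-like cells fell under 20 cells in a library, and 5 to 6 when each wound library was left out. Genes with a larger share of fibroblast-like than neutrophil-like cells in every wound library were 6 at 1000 UMIs and 10 without drawing. No share of all genes was counted under these settings, so these numbers say nothing particular about the family. The causes of the other shifts were not tested. The filters on 300 UMIs and all barcodes were not run within cell types, since clusters covered kept cells only.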
